A study of Mus musculus with 12 samples.

Results

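Genes listed as enriched in the thalamus were followed in RNA-seq of the ventral hippocampus (vHPC) of male mice given chronic oral corticosterone (CORT). The set held 10 genes of the 17564 in the tables: Tcf7l2, Lef1, Zic1, Rora, Adarb1, Prkcd, Plcb4, Ptpn3, Chn2 and Tnnt1. They were chosen by name, as genes enriched in the thalamus, with earlier results of these comparisons known. Among them, 4 (Rora, Plcb4, Chn2 and Tnnt1) are hub genes, that is highly connected genes, of the co-expression module that the study named yellow. The study chose hub genes by connectivity, in a network built on data that include these libraries. Since earlier results were known when the 10 genes were named, the CORT effects below are given as a description, with no test. All 10 had a row in both tables.

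The mice were on a C57BL/6 background and were either wild type (WT) or heterozygous for the Val66Met variant of brain-derived neurotrophic factor (BDNF het-Met). From 2 months of age they drank CORT, their principal adrenal stress hormone, at 25 mg/l in 1% ethanol, or the 1% ethanol vehicle alone (VEH), for 6 weeks. The labels give 3 libraries in each of the 4 groups (VEH or CORT in either genotype), 12 in all. Each library held RNA pooled from 2 animals, with the vHPC of one hemisphere taken from each, and all animals had been through behavioural tests during treatment. The BDNF allele is carried in every cell, so no cell type is singled out by the model.

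The tables hold fitted values per gene and no value per library, so neither the level in each group nor the number of reads counted in each library was analysed here. The labels state an approximate depth of 35 to 40 M reads for every library. Each error is the standard error (SE) of the limma-voom fit, given in parentheses. The fit had 7 residual degrees of freedom, whereas 12 libraries in 4 groups leave 8. Among the 1649 genes with a mean above 7 on the log2 CPM (counts scaled to library size) scale, the SE was 1.12 times higher in WT than in BDNF het-Met mice, which is the ratio that 2 against 3 libraries give over 3 against 3. The spacing of the errors thus matches a fit of 11 libraries with 5 from WT mice, and the sources used here do not say which library was left out. Fold changes were turned so that a positive value is higher under CORT. This direction rests on the name of each comparison, in which VEH comes before CORT. Of 10 textbook genes induced by glucocorticoids, 6 were higher under CORT in WT mice against 7 in BDNF het-Met mice, with Fkbp5 at 0.21 (0.09) and 0.43 (0.08) and Plin4 at 1.52 (0.40) and 1.70 (0.30) on the log2 scale. Others of that list stood on the other side of 0, among them Tsc22d3 at -0.26 (0.11) in WT and Per1 at -0.15 (0.05) in BDNF het-Met mice, both with an uncorrected p below 0.05 and named after their values were seen. The text of the study gives Tnnt1 and Chn2, described further on, as upregulated under CORT in BDNF het-Met mice. That is the opposite of the sign found here for both. The study also describes the yellow module, which holds them, as including DEGs (differentially expressed genes) higher under VEH in the same mice. Every sign given here therefore holds only if the comparison names give the true order.

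As background, the thalamus relays sensory and motor signals to the cortex and lies close to the hippocampus in the rodent brain. Its excitatory neurons share a programme of transcription factors, in which Tcf7l2 and Lef1 act at the nuclear end of the Wnt pathway. They also express characteristic signalling enzymes such as Prkcd and Plcb4. Several of these genes are also used elsewhere: Tcf7l2 in newly formed oligodendrocytes, Lef1 in the endothelium of brain vessels, Zic1 in the meninges and Prkcd in the central amygdala.

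The first question was how strongly the vHPC libraries expressed these genes, which the choice of members did not use. Levels between genes are compared as the mean log2 CPM over all libraries per kilobase of annotated exon. The highest were Adarb1 at 4.15, the gene of an enzyme that edits adenosines in glutamate receptor transcripts, and Ptpn3 at 3.53, the gene of a cytoplasmic tyrosine phosphatase. These 2 lay at the 84.4th and 76.2nd percentile of all genes. The nuclear receptor gene Rora followed at 2.09, close to the median over all genes of 1.96. Next came Plcb4 at 1.59, Chn2 at 1.46, Prkcd at 1.12 and Zic1 at 1.11. The lowest were Tcf7l2 at -0.62, Lef1 at -0.91 and Tnnt1 at -1.32, all under the 18th percentile. Of these levels no error between libraries can be given, so Prkcd and Zic1, which differ by under 0.01, cannot be ordered, and the order of other close neighbours is a description. The set thus spanned strongly and weakly expressed genes, from the 84.4th down to the 11.2nd percentile per length.

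**Figure D1:**
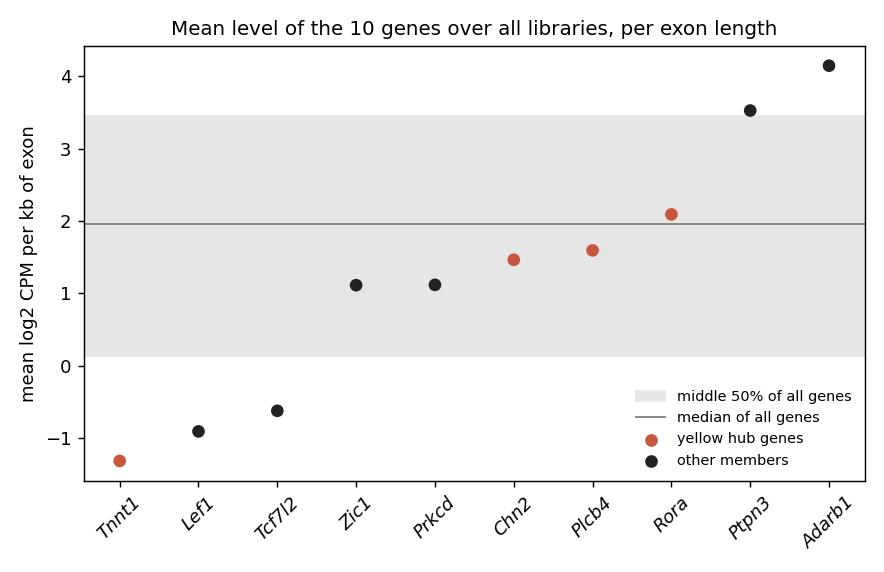
Mean level of each of the 10 genes over all libraries (y axis, log2 CPM per kilobase of exon), in rising order; red points are the 4 yellow hub genes, the line is the median of all genes and the band holds the middle 50% of them. Adarb1 and Ptpn3 lie above the band, and Tnnt1, Lef1 and Tcf7l2 lie below it.

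The labelled tissue was checked against genes that define hippocampal and thalamic neurons. The hippocampal genes Prox1, Wfs1 and Grik4, which mark granule cells, CA1 and CA3, had mean levels of 3.62, 4.55 and 3.72 log2 CPM per kilobase. The thalamic genes Slc17a6, a glutamate transporter gene, and Ramp3, a receptor-modifying gene, had 1.07 and 0.95. Gbx2 and Shox2, the remaining 2 of 12 further thalamus genes, had no row, and neither did 2 of 6 habenula genes, Pou4f1 and Irx2. By these levels the defining hippocampal genes stood above the defining thalamic genes with a row. Among the members, Adarb1 at 4.15 stood above Prox1 and Grik4, and which cells supply its transcript was not tested. In bulk tissue, fewer cells of a type and less RNA per cell cannot be told apart.

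The second question was whether the 10 genes moved together under CORT. In WT mice 7 were lower under CORT and 3 were higher, and in BDNF het-Met mice 8 were lower and 2 were higher. Over all genes, 51.1% were lower in WT mice against 51.8% in BDNF het-Met mice. The median log2 fold change of the 10 genes was -0.15 in WT mice against -0.12 in BDNF het-Met mice, where the median over all genes was 0.00 and -0.01. The single values spread widely around these medians, from -0.48 to 0.23 in WT and from -0.81 to 0.19 in BDNF het-Met mice. Since the members were named with these values known, nothing is read from the counts.

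The study called a gene differentially expressed (DEG) when its fold change passed 1.3 with an uncorrected p below 0.05. By that rule 0 of the 10 were DEGs in WT mice, where 1.25% of all genes were DEGs and 0.672% were DEGs lower under CORT. In BDNF het-Met mice 2 of the 10 were, Tnnt1 and Chn2, both lower under CORT by the order of the comparison names, against 3.24% of all genes in either direction and 2.52% lower. The text of the study instead gives both as upregulated under CORT in these mice. Without the fold change minimum, the uncorrected p was below 0.05 for 0 of the 10 in WT mice, where 3.83% of all genes had such a p, and for 5 in BDNF het-Met mice, where 13.2% had. Those 5 split by direction, with Tnnt1, Chn2 and Tcf7l2 lower and Ptpn3 and Adarb1 higher under CORT. After the Benjamini-Hochberg adjustment of the authors' limma fit, 0 genes passed an adjusted p of 0.05 in either genotype. The smallest adjusted p among the 10 was 0.999 in WT mice against 0.243 in BDNF het-Met mice.

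**Figure D2:**
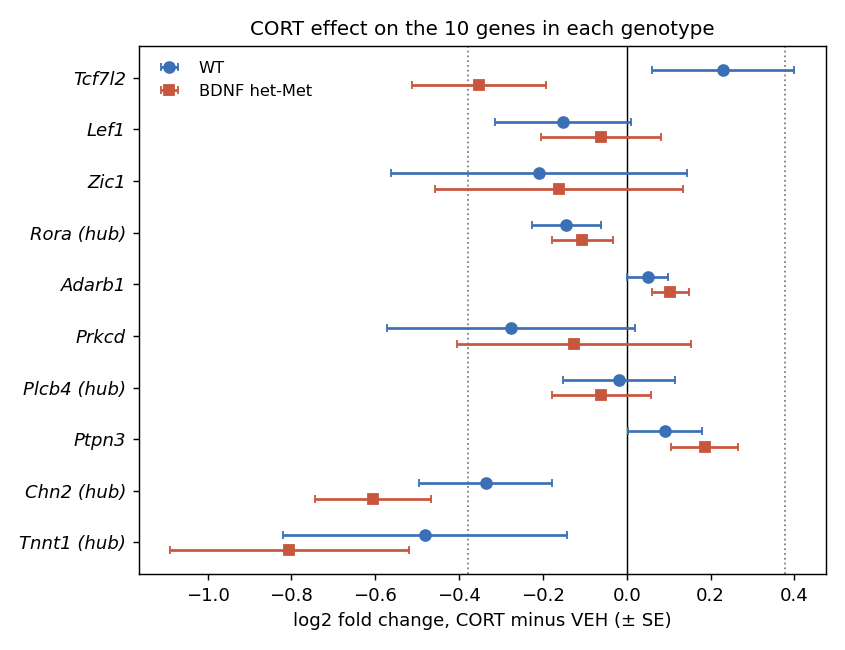
Log2 fold change under CORT (x axis, CORT minus VEH) with its SE for each of the 10 genes, WT as blue circles and BDNF het-Met as red squares; dotted lines mark a fold change of 1.3 in either direction. Only Tnnt1 and Chn2 in BDNF het-Met mice lie beyond the dotted line by more than their SE, and Tcf7l2 has its symbols on opposite sides of 0.

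Of the 4 hub genes, Tnnt1 encodes the troponin T of slow skeletal muscle and is also a known marker of thalamic neurons. It lies on the minus strand of chromosome 7, from 4504570 to 4516382 (GRCm38). Its log2 fold change was -0.48 (0.34) in WT mice against -0.81 (0.29) in BDNF het-Met mice, so that the level under CORT was 0.572 times that under VEH in the latter. Tnnt1 had the weakest signal of the set, with a mean of -0.18 log2 CPM, which puts it at the 10.8th percentile of all genes, and it also had the largest log2 fold change in both genotypes.

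Chn2 encodes beta-chimaerin, a protein that switches off the small GTPase Rac and takes part in the pruning of granule cell axons in the hippocampus. It lies on the plus strand of chromosome 6, from 54039554 to 54301810. Its log2 fold change was -0.34 (0.16) in WT mice against -0.61 (0.14) in BDNF het-Met mice, with a level under CORT of 0.657 times that under VEH in the latter. It was the only member whose log2 fold change exceeded 2 SEs in both genotypes. On the opposite strand, the noncoding gene 9130019P16Rik shares 552 exon bases with Chn2. It was weakly expressed, with a mean of -1.22 log2 CPM, and stood at -0.25 (0.42) in WT mice against 1.09 (0.36) in BDNF het-Met mice, the latter away from Chn2. The kit marks strand, but whether the counting used strand is not given in the sources used here, so reads from the shared bases may be assigned to either gene.

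A promoter of each of the 2 DEGs is shown. Both genes had the same sign in both genotypes, but so had 9 of the 10 members in all. Over all genes 37.5% had opposite signs, so a shared sign does not set the 2 apart. Each window, from RefSeq on GRCm38.p6, holds 300 bases around a start site, ending 50 after it, on the strand of the gene. In that of Tnnt1, at chr7:4515926-4516225 on the minus strand, the capitals mark TATAAA, 30 bases before the start site. The window of Chn2, at chr6:54272572-54272871 on the plus strand, is 1 of 4 listed and was taken because it holds AGGTCA. It surrounds an internal start site, since the gene begins at 54039554, and use of that start in the vHPC was not analysed here. The capitals mark that motif, 55 bases before the start site. AGGTCA is only the core of the longer element that ROR receptors such as the product of Rora bind.
Tnnt1: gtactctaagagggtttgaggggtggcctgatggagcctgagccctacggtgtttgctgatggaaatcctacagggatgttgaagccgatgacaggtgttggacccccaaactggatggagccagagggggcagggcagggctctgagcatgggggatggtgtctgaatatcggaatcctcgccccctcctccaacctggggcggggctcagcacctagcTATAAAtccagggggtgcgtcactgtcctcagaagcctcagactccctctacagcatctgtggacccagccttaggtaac
Chn2: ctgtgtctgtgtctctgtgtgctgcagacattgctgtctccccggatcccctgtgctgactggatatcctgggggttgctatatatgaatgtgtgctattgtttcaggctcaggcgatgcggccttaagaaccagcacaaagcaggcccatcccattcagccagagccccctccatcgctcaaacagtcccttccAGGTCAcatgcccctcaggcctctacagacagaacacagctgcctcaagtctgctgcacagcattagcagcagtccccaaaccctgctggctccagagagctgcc

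The 10 genes had 19 promoters in the RefSeq table, which were searched on both strands. The TCF/LEF motifs CTTTGAA and CTTTGAT, which differ in the last letter only, were in 0 of the 19, against 5.14% and 3.73% of 32851 promoters. AGGTCA was in 1, that of Chn2, against 16.3%. TATAAA was in 4, belonging to Lef1, Prkcd, Tcf7l2 and Tnnt1, against 13.6%, and this motif was added after the sequences had been seen. The full palindromic glucocorticoid response element was in 0, against 0.00913%. These matches describe letters in short windows and not binding.

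The remaining hub genes among the 10 had values closer to 0. Rora encodes a nuclear receptor that thalamic relay neurons and Purkinje cells need. Its log2 fold change was -0.14 (0.08) in WT mice against -0.11 (0.07) in BDNF het-Met mice. Plcb4 encodes the phospholipase C that couples metabotropic glutamate receptors to calcium release. Its values of -0.02 (0.13) and -0.06 (0.12) were smaller than their SE in both genotypes. The 4 hub genes were therefore all below 0 in both genotypes, with medians of -0.24 in WT mice against -0.36 in BDNF het-Met mice. A further 4 yellow hub genes are named in the study. It names Usp43 for being differentially expressed in BDNF het-Met mice, as it does Tnnt1 and Chn2. The DEG calls of these genes are therefore not independent of their choice, and nothing is read from their likeness. Usp43, a ubiquitin protease gene, stood at -0.36 (0.28), WT value first, and -0.72 (0.25) and was a DEG in BDNF het-Met mice. Cpne9 stood at -0.33 (0.32) and -0.30 (0.28), Arap2 at -0.16 (0.14) and -0.14 (0.12), and Vwc2 at 0.10 (0.14) and -0.06 (0.13), the last 3 under 1.3 SEs in either genotype.

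The 6 members that are not hub genes did not share a direction. In WT mice 3 were below and 3 above 0, and in BDNF het-Met mice 4 were below and 2 above. Among the transcription factors, Tcf7l2 had a log2 fold change of 0.23 (0.17) in WT mice against -0.35 (0.16) in BDNF het-Met mice, and was the only member with opposite signs. Over all genes, 37.5% had opposite signs in the genotypes. Lef1, which shares 1208 exon bases with Gm43352 on the opposite strand, stood at -0.15 (0.16) and -0.06 (0.14). Zic1, a zinc finger factor of medial thalamus, stood at -0.21 (0.35) and -0.16 (0.30), so that neither went beyond its SE in either genotype. Zic4, the neighbour of Zic1 on the opposite strand with 60 shared exon bases, stood at -0.31 (0.43) and -0.28 (0.37).

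Prkcd encodes protein kinase C delta, a diacylglycerol-activated kinase of first-order relay neurons. It stood at -0.28 (0.30) in WT mice against -0.13 (0.28) in BDNF het-Met mice, within its SE in both genotypes. Ptpn3 and Adarb1, the most highly expressed members, were above 0 in both genotypes. Ptpn3 stood at 0.09 (0.09) in WT mice against 0.19 (0.08) in BDNF het-Met mice, and Adarb1 at 0.05 (0.05) and 0.10 (0.04). Thus the members with the highest level per length were on the opposite side of 0 from Tnnt1 and Chn2. A stretch of 80 bases of Adarb1 is 98.75% identical to the transcript of Zfp617, and the sources used here do not say how reads that match both were assigned.

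The third question was whether the CORT effect differed between the genotypes, taken as the BDNF het-Met value minus the WT value. Tcf7l2 showed the largest gap, -0.58 (0.23), which is 2.50 SEs. It was the only member of 10 with an uncorrected p below 0.05 for this difference, against 2.41% of all genes, and over all genes 0 passed after Benjamini-Hochberg adjustment. Tnnt1 differed by -0.32 (0.44) and Chn2 by -0.27 (0.21), so the lower values of both in BDNF het-Met mice were within 1.3 SEs of no difference from WT mice. The gaps of the other 7 members were under 1 SE and ranged from -0.04 in Plcb4 to 0.15 in Prkcd. Across the 10 genes the effects in both genotypes had a Pearson r of 0.64 and a Spearman rho of 0.61. These describe the set only, since genes are not replicates and both values come from 1 joint fit.

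**Figure D3:**
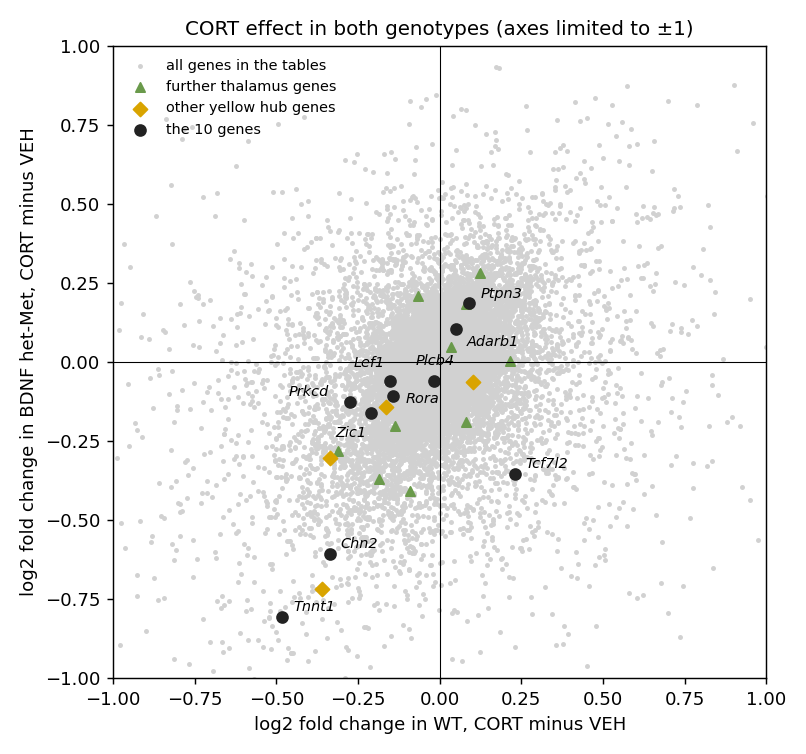
Log2 fold change under CORT in WT (x axis) against BDNF het-Met mice (y axis) for the 10 genes (black), 4 other yellow hub genes (diamonds), 10 further thalamus genes (triangles) and all genes (grey), with both axes limited to ±1. Tnnt1 and Chn2 lie at the lower left beside Usp43, Ptpn3 and Adarb1 at the upper right, and Tcf7l2 is the only one of the 10 at the lower right.

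Further genes of the thalamus gave a mixed picture as well. Of 12 listed, 10 had a row. Of these, 5 were lower and 5 higher under CORT in each genotype, with medians of -0.02 in WT mice against -0.09 in BDNF het-Met mice. By the DEG rule 0 were called in either genotype. The defining genes Slc17a6 and Ramp3 stood at 0.21 (0.38) and -0.09 (0.28) in WT, and at 0.00 (0.33) and -0.41 (0.24) in BDNF het-Met mice. Rgs16, a regulator of G protein signalling, had an uncorrected p below 0.05 in BDNF het-Met mice, at -0.37 (0.12), while Synpo2 stood at 0.28 (0.15) and Vav3 at 0.21 (0.11). The 4 habenula genes with a row had 1 lower and 3 higher in each genotype, with Gpr151, a defining gene, at 0.12 (0.20) and 0.29 (0.17).

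The fourth measure was the spread between libraries of a group, which the choice of members did not use. It was recovered per gene as the residual standard deviation (SD) relative to the prior SD, the common value that the limma fit borrows from all genes, so that about 1 is usual and the median over all genes was 1.01. Among the 10 genes the median was 1.61, and 9 of the 10 lay above the median of genes at like expression (expression deciles were used). Zic1 at 4.43 and Prkcd at 3.90 had the widest spread, both at or above the 97.3rd percentile of their decile. Plcb4 at 2.14 and Chn2 at 2.12 were also in the top 10%, at the 90.9th and 91.2nd percentile. They were followed by Ptpn3 at 1.69, Tcf7l2 at 1.53, Rora at 1.45, Tnnt1 at 1.29 and Lef1 at 1.23. Adarb1 at 0.757 was the only member below the median of its decile. The widest spread was thus in Zic1 and Prkcd and the largest CORT effect in Tnnt1 and Chn2. The Spearman rho between spread and the size of the effect in BDNF het-Met mice was 0.18 over the 10 genes. Whether the members were high or low in the same libraries cannot be read from fitted values.

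A spread above that of most genes was shared by genes of other regions and cell types. It had a median of 2.18 in the further thalamus genes, with Slc17a6 at 4.74, and of 3.25 in hippocampal principal neuron genes, 11 of 12 of which were in the top 10% of their decile. In genes of the amygdala and striatum the median was 4.13, in those of meninges and fibroblasts 6.78 and in those of the choroid plexus 21.7. Habenula genes had a median of 1.01. The median of the 10 genes was thus below that of every other list except habenula genes.

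**Figure D4:**
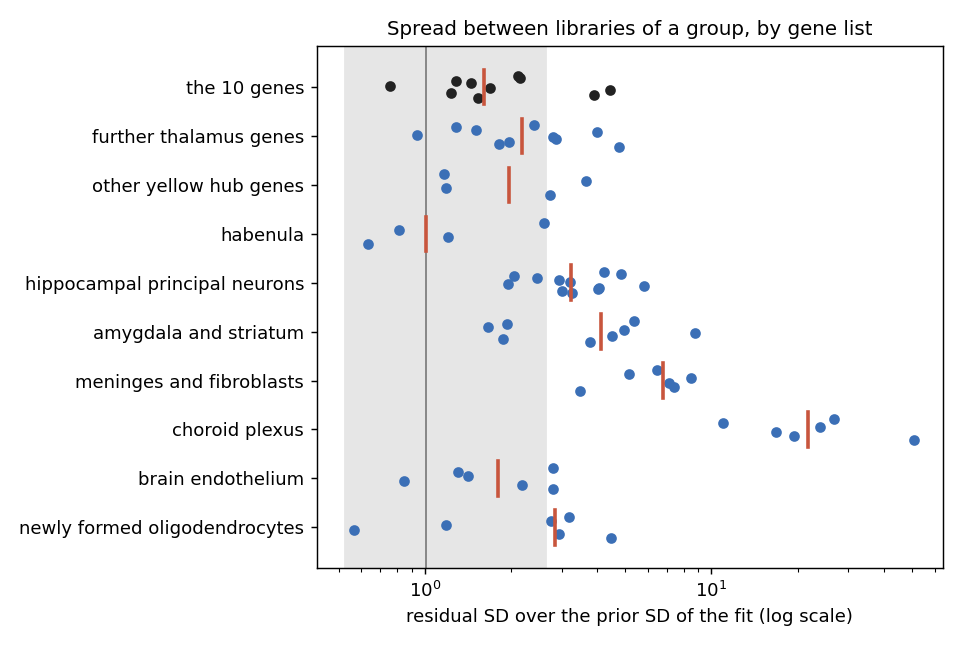
Residual SD over the prior SD of the fit (x axis, log scale) for each gene of the set (black) and of 9 marker lists (blue), with red bars at list medians; the grey line is the median of all genes and the band holds 90% of them. Zic1 and Prkcd are the only members beyond the band, and all choroid plexus genes lie far to the right of it.

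Markers of cells that also use a member were set beside it. For Tcf7l2, 6 genes of newly formed oligodendrocytes had medians of -0.14 in WT mice against -0.49 in BDNF het-Met mice. Of them 5 were lower in the latter, where Enpp6 stood at -1.23 (0.26), Gpr17 at -0.53 (0.13) and Bcas1 at -0.46 (0.20). Only these 3 had an uncorrected p below 0.05 there, against 13.2% of all genes, and the highest value of the list was 0.04. In WT mice 3 were lower and 3 higher, with Enpp6 at -0.80 (0.28) and Gpr17 at -0.35 (0.15). Thus 5 of the 6 genes of these cells, and Tcf7l2, were below 0 in BDNF het-Met mice, whereas in WT mice Tcf7l2 was above 0. For Prkcd, 8 of 8 genes of the amygdala and striatum were lower in BDNF het-Met mice, with a median of -0.44, and 3 of 8 in WT mice, with a median of 0.01. Over all genes, 51.8% were lower in BDNF het-Met mice. The median SE of the 8 genes there was 0.25, and 0 of them had an uncorrected p below 0.05 in either genotype. For Zic1, 5 of 6 genes of meninges and fibroblasts were lower in WT mice against 4 in BDNF het-Met mice, their medians being -0.24 and -0.11. For Lef1, 4 of 6 genes of the brain endothelium were lower in each genotype, with medians of -0.06 and -0.08.

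Genes of hippocampal principal neurons stood on the other side, with 8 of 12 higher in WT and 11 of 12 higher in BDNF het-Met mice (medians 0.07 and 0.19). Among them, Zbtb20, a factor of hippocampal neuron identity, was the only DEG in BDNF het-Met mice at 0.39 (0.17), where 3.24% of all genes were DEGs. Of the defining genes, Prox1 stood at 0.11 (0.16) and 0.23 (0.14), WT value first, and Grik4 at 0.13 (0.16) and 0.30 (0.14). Wfs1 went the other way, at -0.20 (0.28) and -0.01 (0.25). The 6 choroid plexus genes were all lower in WT, while 5 of 6 were higher in BDNF het-Met mice, the medians being -0.80 and 0.17 and median SEs of 1.31 and 1.25. The part of any of these cells in the values of the 10 genes was not tested.

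A last measure was the part of the joint F statistic that remained once both CORT effects had been taken off, which reflects the difference between genotypes and carries no sign and no p. Its median was 0.473 for the 10 genes and 0.433 for all genes. Ptpn3 at 2.84, Prkcd at 2.62 and Tcf7l2 at 2.37 were highest, at the 90.6th, 89.2nd and 87.4th percentile. Adarb1 at 0.86, Zic1 at 0.551 and Tnnt1 at 0.394 were near the middle of all genes. The hub genes Rora at 0.0382, Plcb4 at 0.0105 and Chn2 at -0.0303 had almost none of it, as had Lef1 at 0.0054. Plcb4 lies on chromosome 2 as does Bdnf, with its start 25.9 Mb beyond the end of Bdnf, and its value was among the lowest of the set.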

How the data were processed

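Per the labels, the authors prepared stranded libraries from total RNA and sequenced 75-bp single-end reads. They aligned them with STAR to GRCm38 (mm10), counted them with featureCounts and ran limma-voom. For versions, the filter on weak genes and the use of strand, details were not given in the sources used here. Deposited log2 values are mean expression in log2 CPM, log2 fold change and its ordinary SE. The deposited p-values are uncorrected, adjusted and joint. The deposited scores are the moderated t and F.

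The signs of fold change and t were turned to CORT minus VEH, and the moderated SE was fold change over t. The relative residual SD was recovered from both SEs, with 7 residual and 10.9 total degrees of freedom. The genotype statistic was 3 times F minus both squared t, and it fell slightly below 0 in 610 genes. Differences between genotypes used both SEs at the total degrees of freedom, two-sided. Steps were tested on simulated data. Exon lengths came from the GENCODE annotation of GRCm38, matched for 17557 of 17564 identifiers, and similar transcripts from blastn 2.17.0 at 98% identity over 75 bases. Python 3.11.15, numpy 2.4.6, pandas 2.3.3 and scipy 1.17.1 were used. The 10 genes and all lists were chosen with earlier results of these data known. Outside them, genes named were the 4 other hub genes, defining genes and at most 3 genes per list with the smallest uncorrected p. Tsc22d3 and Per1 were named besides, after their values were seen. Genes that overlap or resemble a member were named for that reason. Each library is a pool, so errors cover pools and not single mice. The labels state about 35 to 40 M reads per library, and reads counted per gene were not analysed here.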

Additional observations from a re-analysis of the deposited data

Results flagged for a closer look

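The CORT effect on Tcf7l2 differed between the genotypes by -0.58 on the log2 scale (SE 0.23), BDNF het-Met minus WT, from 0.23 under WT to -0.35 under the Val66Met variant. The difference was computed here from both fold changes and SEs of the authors' limma fit and is given as a description. Its two-sided t test had an uncorrected p of 0.0295 and a Benjamini-Hochberg adjusted p of 0.9999 over all genes, so it failed the correction. With ordinary in place of moderated SEs its uncorrected p was above 0.05. How many libraries showed each direction was not analysed here, and no other member was singled out by this comparison.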

How the results depend on the processing

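No paired analysis was possible because the tables hold fitted values and none per library; for the same reason leaving out each replicate in turn was not run. Dropping the fold change minimum raised the DEGs among the 10 genes in BDNF het-Met mice from 2 to 5, and an uncorrected p below 0.01 lowered them to 1. Without the 4 hub genes, 3 of 6 were lower under CORT in WT mice, and 4 of 6 in BDNF het-Met animals. With ordinary SEs, 0 members differed between genotypes at an uncorrected p below 0.05. The other counts and the medians of residual spread and genotype statistic moved by less than their limits under the alternatives run for them. The limit was 1.5 times for a count and the spread or SE for a median. The median effect had the median SE as its limit, 0.16 for WT against 0.14 for BDNF het-Met mice. That was larger than the size of the medians, -0.15 and -0.12, so losing the whole effect would have passed. Its stability was therefore not tested. Without the 4 hub genes the medians were -0.05 and -0.09, and the further thalamus genes gave -0.02 and -0.09. The mean in place of the median gave -0.12 and -0.20. Of 40 checks on single genes, 35 stayed on the same side of 0.05 and 5 lost it, all in BDNF het-Met mice: Tcf7l2 and Ptpn3 with ordinary SEs and with centring on the median of genes of like expression, and Adarb1 with that centring. That centring turned the sign of 0 values. Reads counted per library were not analysed here, and Tnnt1, with a mean of -0.18 log2 CPM, had the lowest mean of the set. A reversed order of the comparison names would turn every sign.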
